A study of Homo sapiens with 6 samples.

Results

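The genes described here are 10 members of the AP-1 family of transcription factors, FOS, FOSB, FOSL1, FOSL2, JUN, JUNB, JUND, ATF3, BATF and MAFF, out of 81496 gene symbols on the arrays. They were found by their symbol in the deposited table of expression values, in which each of the 10 has 1 probe set. The arrays (Clariom D, whose short oligonucleotide probes cover coding and noncoding RNA) compared MCF10.AT1 with MCF10.AT1-R, to find genes that go with acquired resistance to fluvastatin, a statin that blocks HMG-CoA reductase. MCF10.AT1 is the preneoplastic member of a panel of human breast epithelial lines derived from MCF10A and was transformed with activated HRAS, and the labels name it as untreated and sensitive to the drug, although their treatment note on rising doses is the same for both lines. MCF10.AT1-R is 1 derivative that survived fluvastatin raised stepwise from 1 to 20 µM. Both lines were profiled as biological replicates on 3 arrays each. Whether fluvastatin was in the medium when RNA was taken is not given in the sources used here, and 1 selected line cannot stand for resistant cells in general.

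AP-1 is a dimer of basic leucine zipper proteins. FOS proteins need a JUN partner to bind DNA, JUN proteins can also pair among themselves, and ATF, BATF and MAF proteins join the same dimers. The dimers bind the TPA response element or the related cyclic AMP response element, and many of the genes are immediate-early genes whose RNA rises within minutes of growth factor, RAS-MAPK or stress signals. In breast and skin epithelium AP-1 is known for driving proteases, growth factors and the envelope proteins of squamous differentiation.

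Values are log2 expression after RMA, a method that corrects background, equalises the distributions of the arrays and summarises the probes of each probe set. Arrays A01, A02 and A03 hold MCF10.AT1 and arrays B02, B03 and B04 hold MCF10.AT1-R. The letter in the array name therefore goes with the line, and what it stands for is not given in the sources used here. The line cannot be told apart from anything else that goes with this letter. A03 stood apart from the rest, with correlations over all transcript probe sets of 0.779 to 0.795 with the other 5 arrays, which correlated with each other at 0.967 to 0.977. It was left out of the comparison, as in the study, and its values are given separately. The 612 negative control probe sets on each array give the level of background, and their 95th percentile lay between 2.88 and 3.14 on the 5 arrays kept. Differences are MCF10.AT1-R minus MCF10.AT1 on the log2 scale. In these bulk samples fewer expressing cells and less RNA per cell cannot be told apart.

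ATF3 was the AP-1 gene that passed the test between the lines. It lay within the negative controls on both MCF10.AT1 arrays and above them on all 3 MCF10.AT1-R arrays. With values under the level of the negative controls set to that level, a floor, it was 1.83-fold higher in MCF10.AT1-R. The call of ATF3 was lost in 5 of the alternatives, this floor among them. JUN and FOSL1 were higher on every MCF10.AT1-R array by smaller amounts that did not pass the test. FOS, the founding member of the family, was slightly lower, and BATF, MAFF, JUNB and FOSB overlapped between the lines. Of the 7 members that passed the filter on low and invariant probe sets, 1 was higher at a false discovery rate (FDR) of 5% in limma and 0 were lower, beside 0.758% of all tested probe sets called higher and 0.447% called lower.

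**Figure D1:**
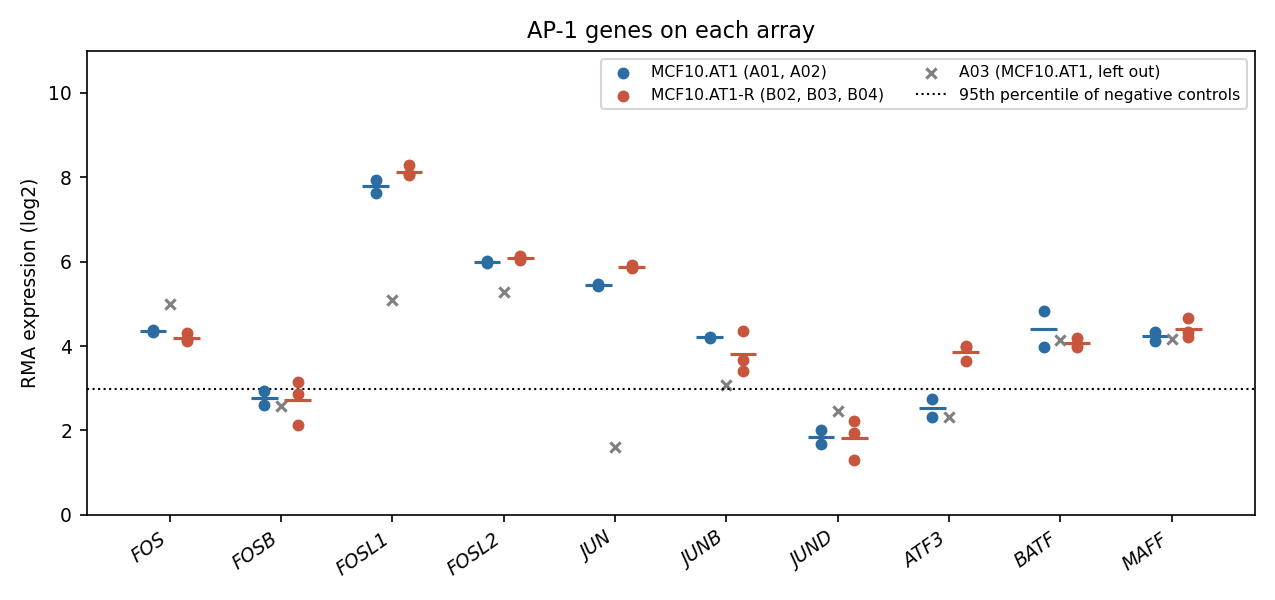
Log2 RMA expression (vertical axis) of the 10 AP-1 genes on each array, with blue points for MCF10.AT1 (A01, A02), red points for MCF10.AT1-R (B02, B03, B04), bars for the line means, grey crosses for A03 and a dotted line at 2.99, the negative control 95th percentile averaged over the 5 arrays. ATF3 crosses the dotted line between the lines, JUND stays under it on every array, and JUN on A03 lies at 1.60. Levels of different genes come from different probes and are not comparable.

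Promoter sequences are shown for ATF3, which passed the test, and for JUN, the gene with the widest gap between the lines after it, because these 2 genes are known to be switched on through response elements bound by ATF and JUN proteins. The set of RefSeq (GRCh38.p14) promoters used here held 11 entries for 9 of the members and none for FOSL1. Each entry has 300 bases, from 250 before to 50 after a transcription start. ATF3 has 2 starts in this set, at chr1:212565157-212565456 and at chr1:212614768-212615067, both on the plus strand. Starts of ATF3 outside this set were not examined, and which start these cells use was not tested. JUN lies at chr1:58783998-58784297 on the minus strand. Capitals mark the matches to the motifs searched. These were TGANTCA (the TPA response element), TGANNTCA (the cyclic AMP response element), TATAAA, and the CArG box of the serum response factor. TGANNTCA takes in variants of its element, of which TGACGTCA is the full form. All motifs were read on both strands.
ATF3, first start: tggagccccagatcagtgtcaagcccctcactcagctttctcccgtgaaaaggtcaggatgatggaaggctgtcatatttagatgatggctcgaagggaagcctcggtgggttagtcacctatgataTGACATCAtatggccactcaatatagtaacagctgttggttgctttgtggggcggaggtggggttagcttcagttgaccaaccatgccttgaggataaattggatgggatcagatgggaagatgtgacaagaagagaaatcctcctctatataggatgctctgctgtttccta
ATF3, second start: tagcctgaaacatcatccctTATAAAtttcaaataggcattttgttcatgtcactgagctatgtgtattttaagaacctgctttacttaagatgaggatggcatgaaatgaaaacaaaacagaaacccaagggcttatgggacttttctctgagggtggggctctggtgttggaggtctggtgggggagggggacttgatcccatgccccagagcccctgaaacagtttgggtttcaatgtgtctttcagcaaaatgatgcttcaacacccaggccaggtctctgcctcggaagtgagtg
JUN: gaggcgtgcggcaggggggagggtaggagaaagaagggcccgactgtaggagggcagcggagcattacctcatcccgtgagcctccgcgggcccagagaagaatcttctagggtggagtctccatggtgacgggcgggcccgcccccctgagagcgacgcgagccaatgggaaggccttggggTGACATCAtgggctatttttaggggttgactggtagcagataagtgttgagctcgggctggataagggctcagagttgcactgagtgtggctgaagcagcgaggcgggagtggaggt
The first ATF3 entry and the JUN entry hold the same variant, TGACATCA, 123 and 67 bases before the start, and the second ATF3 entry holds TATAAA 230 bases before its start. This variant stands in 2 of the 11 member entries and in 2.61% of all 35116 promoters, a count made after both matches had been seen. The looser pattern TGANNTCA stands in 4 of the 11 entries (ATF3, JUN, JUND and MAFF) and in 11.5% of all promoters. JUND and MAFF hold the full form TGACGTCA, 200 and 54 bases before the start, which stands in 1.85% of all promoters. TGANTCA was found only in FOSL2, beginning at base 5 of the transcript, against 7.71% of all promoters. TATAAA stands 33 bases before the start of FOS, 30 before FOSB and 31 before JUNB, in each on the strand of the gene. On either strand it stands in 11.5% of all promoters. The CArG box was not found in the 11 entries, and 1.29% of all promoters hold it in this window. A match of letters describes the sequence and is not a measured binding site.

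ATF3 encodes a stress-induced member of the ATF and CREB family that pairs with JUN proteins and is switched on by the integrated stress response. Its level was 2.33 on A01 and 2.75 on A02, and 3.99, 3.64 and 3.97 on B02, B03 and B04. The lowest MCF10.AT1-R array was thus 0.89 above the highest MCF10.AT1 array. The MCF10.AT1 mean was 2.54 ± 0.30 (SD, n = 2) and the MCF10.AT1-R mean 3.87 ± 0.20 (SD, n = 3), a difference of 1.33 with a standard error of 0.31, a 95% interval of 0.72 to 1.94 and a limma adjusted p of 0.00338. Both MCF10.AT1 values lay under the 95th percentile of the negative controls on their own array (3.14 and 3.03), while the 3 MCF10.AT1-R values lay above theirs. The 1.83-fold is the log2 difference of 0.87 found with values under 2.99 set to 2.99, the negative control 95th percentile averaged over the 5 arrays. This floored difference had an adjusted p of 0.244 in limma. It is an estimate that depends on the floor and not a lower limit. ATF3 on A03 was 2.32, also within the negative controls.

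The call of ATF3 was also lost without A01, with A03 counted as MCF10.AT1 and in 2 of the 3 fits with another filter. Without A01 the difference was 1.12 and the adjusted p in limma 0.343, whereas leaving out any of the other 4 arrays gave differences of 1.26 to 1.54 and adjusted p-values of 0.00439 to 0.0327. Without any filter the adjusted p was 0.118, and with the filter on low expression alone it was 0.0966, or 0.019 when the trend option was added. This option, a prior variance that follows the expression level gave 0.00344 with the full filter, and that fit called 1 of the 7 tested members higher, again ATF3, beside 1.69% of all tested probe sets.

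**Figure D2:**
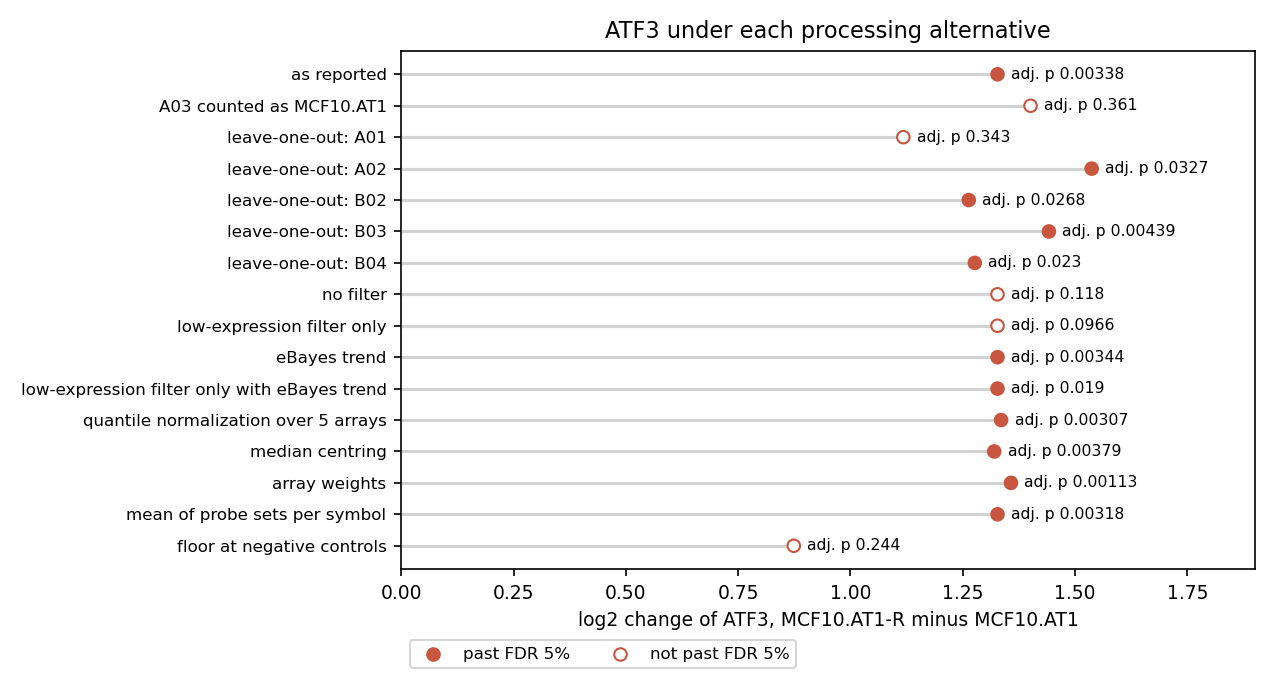
Log2 difference of ATF3 between MCF10.AT1-R and MCF10.AT1 (horizontal axis) as reported and under each processing alternative, with filled points past FDR 5%, open points not past it, and the limma adjusted p beside each point. The difference lies between 0.87 and 1.54 in all settings shown, and 5 of them give open points.

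In the FOS family, FOS itself, the immediate-early gene that gave the family its name, was 4.38 and 4.32 on the MCF10.AT1 arrays and 4.12, 4.30 and 4.18 on the MCF10.AT1-R arrays. All 3 MCF10.AT1-R values were lower, with a gap of 0.02 between the nearest arrays. FOS varied too little over the 5 arrays to pass the filter, and the fit without a filter gave a difference of -0.15 (95% interval -0.57 to 0.27, adjusted p of 0.916 in limma). FOSB, which is induced together with FOS and has a truncated form known as a long-lived protein in neurons, was 2.61 and 2.94 in MCF10.AT1 and 2.13, 3.14 and 2.86 in MCF10.AT1-R. Only B03 exceeded the negative controls of its array, the lines overlapped, and the difference was -0.06 (95% interval -0.67 to 0.55, adjusted p of 0.967 in limma). No level of FOSB above background was therefore shown in MCF10.AT1.

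FOSL1 encodes FRA-1, a FOS protein without a transactivation domain of its own that RAS-ERK signalling stabilises and that is known from basal-like and mesenchymal breast cancer cells. It was 7.63 and 7.93 in MCF10.AT1 and 8.05, 8.08 and 8.29 in MCF10.AT1-R. Every MCF10.AT1-R array was higher, with a gap of 0.12, and the difference was 0.35 (95% interval -0.26 to 0.97, adjusted p of 0.830 in limma, and 0.216 with the trend option). It was 0.21 without A01 and 1.25 with A03, where FOSL1 was 5.10, counted as MCF10.AT1. FOSL2, which encodes FRA-2, was 5.98 and 6.03 in MCF10.AT1 and 6.03, 6.11 and 6.12 in MCF10.AT1-R, so that A02 and B02 differed by less than 0.01. It was removed as invariant, and the fit without a filter gave a difference of 0.09 (95% interval -0.33 to 0.50, adjusted p of 0.957 in limma).

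In the JUN family, JUN, the main partner of the FOS proteins and the substrate that gave the JUN N-terminal kinases their name, was even within each line, at 5.43 and 5.46 in MCF10.AT1 and 5.86, 5.87 and 5.92 in MCF10.AT1-R. The lines were 0.40 apart at their nearest arrays, and the SD within the lines was 0.03. The difference was 0.44, or 1.36-fold, with a 95% interval of -0.17 to 1.05 and an adjusted p of 0.789 in limma. The trend option gave 0.544, or 0.265 with the low-expression filter only, and leaving out B04 gave 0.830. The lowest of the alternatives was 0.0611 with the floor at the negative controls. All values of JUN on the 5 arrays lay above that floor and the difference stayed at 0.44. The lower adjusted p there does not come from a larger difference. After the filter limma used a common SD of 0.34 for every probe set, wider than the spread of JUN itself. Leaving out each array in turn kept the difference between 0.42 and 0.46. On A03, JUN was 1.60, below each of the other 5 arrays, and with A03 counted as MCF10.AT1 the difference was 1.72 (adjusted p of 0.771 in limma).

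JUNB, which often opposes JUN in the control of proliferation, was 4.22 and 4.19 in MCF10.AT1 and 3.41, 3.67 and 4.36 in MCF10.AT1-R. B02 and B03 lay below both MCF10.AT1 arrays and B04 above them, and the difference was -0.39 (95% interval -1.005 to 0.22, adjusted p of 0.814 in limma). It was -0.19 without B02, -0.67 without B04 and -0.017 with A03 counted. JUND, the JUN protein present in most resting cells, was 2.00 and 1.67 in MCF10.AT1 and 1.93, 1.30 and 2.22 in MCF10.AT1-R. All 5 values, and 2.45 on A03, were within the negative controls, so this probe set gave no level of JUND above background and no fold is given.

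Of the remaining members, BATF pairs with JUN proteins and is known mainly from lymphocytes, and its probe set read 3.97 and 4.83 in MCF10.AT1 and 4.05, 4.18 and 3.97 in MCF10.AT1-R. A02 stood above all other arrays, the lines overlapped, and the difference of -0.34 (95% interval -0.95 to 0.27, adjusted p of 0.835 in limma) became 0.09 without A02 and -0.76 without A01. MAFF, a small MAF protein without a transactivation domain, was 4.12 and 4.34 in MCF10.AT1 and 4.66, 4.22 and 4.34 in MCF10.AT1-R, with a difference of 0.18 (95% interval -0.43 to 0.79, adjusted p of 0.891 in limma). Its values overlapped as well, and the difference was 0.069 without A01, 0.053 without B02, 0.29 without A02 and 0.27 without B03.

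**Figure D3:**
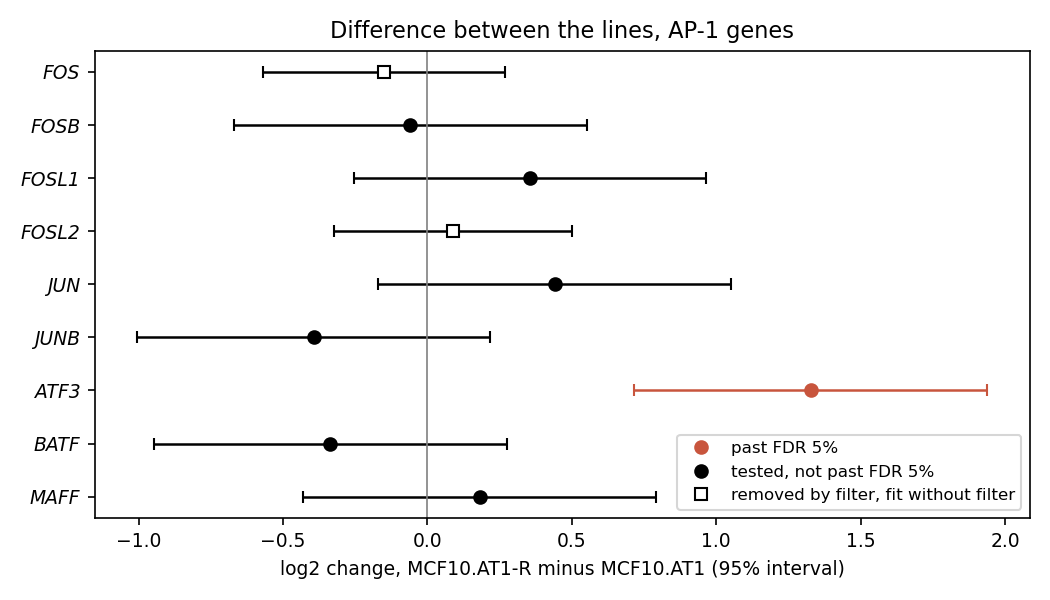
Log2 difference between MCF10.AT1-R and MCF10.AT1 (horizontal axis) with its 95% interval from limma for 9 AP-1 genes, red for the gene past FDR 5%, black circles for the other tested genes and open squares for genes removed by the filter, taken from the fit without a filter. The interval of ATF3, 0.72 to 1.94, lies above 0, and the intervals of the other genes shown include 0. JUND, within the negative controls on every array, is not shown.

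Across the 10 members, 4 were higher on all MCF10.AT1-R arrays than on both MCF10.AT1 arrays (ATF3, JUN, FOSL1 and FOSL2), 1 was lower (FOS) and 5 overlapped. Among the 7 tested members 3 were higher without overlap and 0 lower, beside 12.9% of all tested probe sets that were higher and 13.8% that were lower without overlap. The median difference over the 10 members was 0.03, beside -0.01 over all tested probe sets, of which 48.6% were above 0. The smallest difference that passed FDR 5% among all probe sets was 1.07, so that differences of the size of JUN, JUNB, FOSL1 or BATF could not have passed in that fit with its common SD. The trend option passed smaller differences elsewhere, and none of these 4 genes. On A03, 5 of the 10 members lay below all other arrays and 2, FOS and JUND, above them.

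None of the partner genes of the same protein class passed the test. The list held 16 ATF, BATF, MAF, NFE2 and BACH genes and gave 0 calls among the 9 tested in limma. This is near the overall share, 0.758% of all tested probe sets called higher and 0.447% lower. The median difference of the 16 was -0.01. Among the tested 0 were higher and 3 lower without overlap, beside 12.9% and 13.8% of all tested probe sets. NFE2L1, a CNC factor of the proteasome recovery response, was 9.45 and 9.46 in MCF10.AT1 and 9.64, 9.72 and 9.74 in MCF10.AT1-R, a difference of 0.24. ATF4, the effector of the integrated stress response that is known to act upstream of ATF3, was 9.31 and 9.37 in MCF10.AT1 and 9.14, 9.08 and 9.21 in MCF10.AT1-R, a difference of -0.19. The filter removed both ATF4 and NFE2L1 as invariant, and the limma fit without a filter gave adjusted p-values of 0.888 and 0.856. A link between the levels of ATF4 and ATF3 was not tested. ATF2, a JUN partner phosphorylated by stress kinases, differed by -0.26 (adjusted p of 0.847 in limma) and was lower without overlap. NFE2L2, the regulator of antioxidant genes, differed by 0.16 (adjusted p of 0.903 in limma) with overlapping arrays.

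The 16 upstream genes, MAP kinases, their activators and the serum response factors, also gave 0 calls among the 9 tested. That is again near the overall share, 0.758% of all tested probe sets called higher and 0.447% lower. The median difference of the 16 was 0.18. Among the 9 tested 4 were higher and 0 lower on all MCF10.AT1-R arrays, beside 12.9% and 13.8% of all tested probe sets, and with the untested ones 8 of the 16 were higher. MAPK9, the kinase JNK2, differed by 0.12 with overlapping arrays, and ELK4, a partner of the serum response factor on the FOS promoter, by 0.18 without overlap, and the filter removed both. RPS6KA1, the ERK-activated kinase RSK1, differed by 0.59 (adjusted p of 0.627 in limma, and 7.97e-04 with the trend option), but the probe set with its highest mean, 1 of 22 with this symbol, is named as unmapped in the file and its identity is uncertain. The 2 probe sets of RPS6KA1 named as mapped transcripts differed by 0.80 and 0.27 (adjusted p of 0.299 and 0.842 in limma).

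Among genes that are induced together with FOS and JUN, PTGS2 rose. Of 20 other immediate-early genes 14 were tested, 1 was higher and 0 were lower in limma, beside 0.758% and 0.447% of all tested probe sets, and the median difference of the 20 was -0.07. PTGS2, which encodes the inducible cyclooxygenase COX-2, was 3.20 and 3.34 in MCF10.AT1 and 5.19, 5.62 and 5.22 in MCF10.AT1-R, a difference of 2.07 or 4.20-fold (standard error 0.31, adjusted p of 1.86e-08 in limma). All MCF10.AT1-R arrays were at least 1.85 above both MCF10.AT1 arrays, whose values lay just above the negative controls. The call of PTGS2 was lost with A03 counted as MCF10.AT1 and with the floor at the negative controls, although the floor left its difference at 2.07. KLF6, a growth-regulating zinc finger gene, differed by 0.58 without overlap, with an adjusted p of 0.652 in limma that became 3.97e-06 with the trend option. GADD45A, a growth arrest and DNA damage gene, differed by 0.48 without overlap (adjusted p of 0.758 in limma). IER2 differed by -0.31 without overlap (adjusted p of 0.838 in limma), and MCL1, a survival gene of the BCL2 family, by -0.18 with overlap after removal by the filter. Among the tested 4 were higher and 6 lower without overlap, beside 12.9% and 13.8% of all tested probe sets, and 3 of the lower ones chosen after their values were seen were KLF4 (-0.82), the MAP kinase phosphatase DUSP1 (-0.66) and the kinase SGK1 (-0.65), with limma adjusted p-values of 0.281, 0.522 and 0.539.

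Genes known as AP-1 targets differed between the lines in both directions. Of 26 targets 21 were tested, 4 were higher and 2 lower in limma, beside 0.758% and 0.447% of all tested probe sets, and the median difference of the 26 was 0.27. Among the tested 10 were higher and 5 lower without overlap, beside 12.9% and 13.8%. The 6 calls became 2 with A03 counted, 1 with the floor at the negative controls and 11 with the trend option. The floor left the differences of IVL, SPRR1A, HBEGF, VIM and TIMP1 as they were, since all their values lay above it. Those that rose included the cornified envelope genes IVL and SPRR1A and the EGF receptor ligand HBEGF, and the 2 that fell were VIM and TIMP1. The list was written with earlier results on keratinocyte and mesenchymal genes of these arrays known, so its counts are a description.

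IVL, which encodes involucrin, was 3.58 and 3.44 in MCF10.AT1 and 6.83, 6.27 and 7.13 in MCF10.AT1-R, a 9.39-fold difference (3.23, standard error 0.31, adjusted p of 9.18e-22 in limma). SPRR1A, a small proline-rich envelope protein, was 5.05 and 4.92 in MCF10.AT1 and 7.21, 6.97 and 7.16 in MCF10.AT1-R, a 4.39-fold difference (2.13, adjusted p of 5.20e-09 in limma). Both genes are expressed in stratified epithelium as cells leave the basal layer, and their lines were 2.68 and 1.93 apart at the nearest arrays. HBEGF was 5.41 and 5.73 in MCF10.AT1 and 7.46, 7.19 and 7.39 in MCF10.AT1-R, a 3.42-fold difference (1.77, adjusted p of 5.13e-06 in limma). All 3 MCF10.AT1-R arrays were above both MCF10.AT1 arrays for each of these genes.

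VIM, which encodes the mesenchymal intermediate filament vimentin, was 7.43 and 7.53 in MCF10.AT1 and 5.69, 5.57 and 6.25 in MCF10.AT1-R, and fell by 1.64 on the log2 scale (adjusted p of 3.95e-05 in limma). TIMP1, an inhibitor of matrix metalloproteinases, was 9.52 and 9.81 in MCF10.AT1 and 8.08, 7.84 and 8.24 in MCF10.AT1-R, and fell by 1.61 (adjusted p of 6.42e-05 in limma). Neither gene overlapped between the lines, and without a filter the adjusted p in limma was 0.0701 for VIM and 0.0368 for TIMP1. The 4 other targets with the highest means did not pass the test although each was higher on all MCF10.AT1-R arrays. CD44, the hyaluronan receptor, differed by 0.67, the cell cycle gene CCND1 by 0.65, PLAUR, the urokinase receptor, by 0.62, and the EGF receptor ligand AREG, which the filter removed, by 0.29. The first 3 had limma adjusted p-values of 0.511, 0.545 and 0.596, which became 4.35e-09, 5.47e-05 and 5.89e-04 with the trend option.

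**Figure D4:**
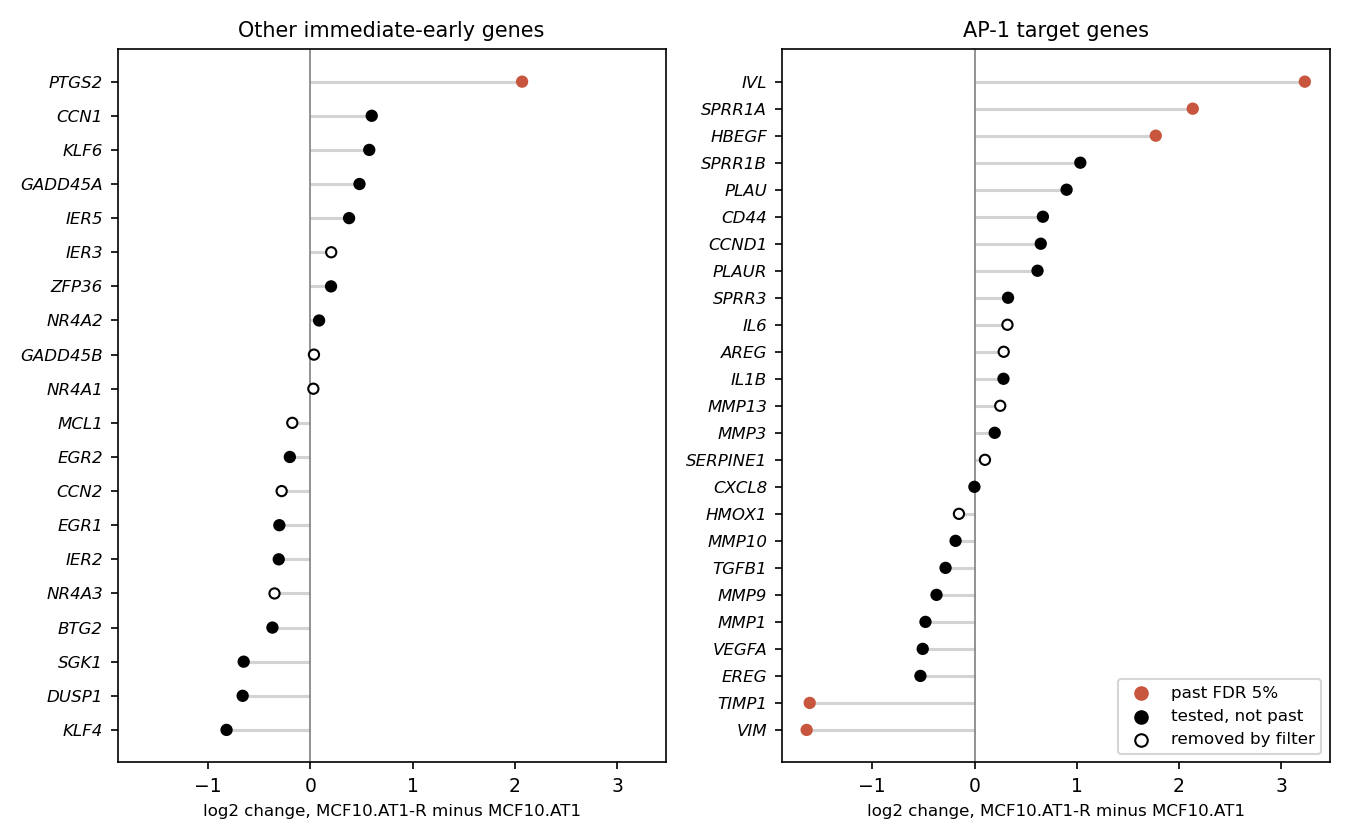
Log2 difference between MCF10.AT1-R and MCF10.AT1 (horizontal axes) for the other immediate-early genes (left) and the target genes (right, 1 of them not shown), sorted by size, red for genes past FDR 5%, black for other tested genes and open for genes removed by the filter. PTGS2 at 2.07 is the red point on the left, and on the right 3 red points lie above 0 and 2 below.

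**Figure D5:**
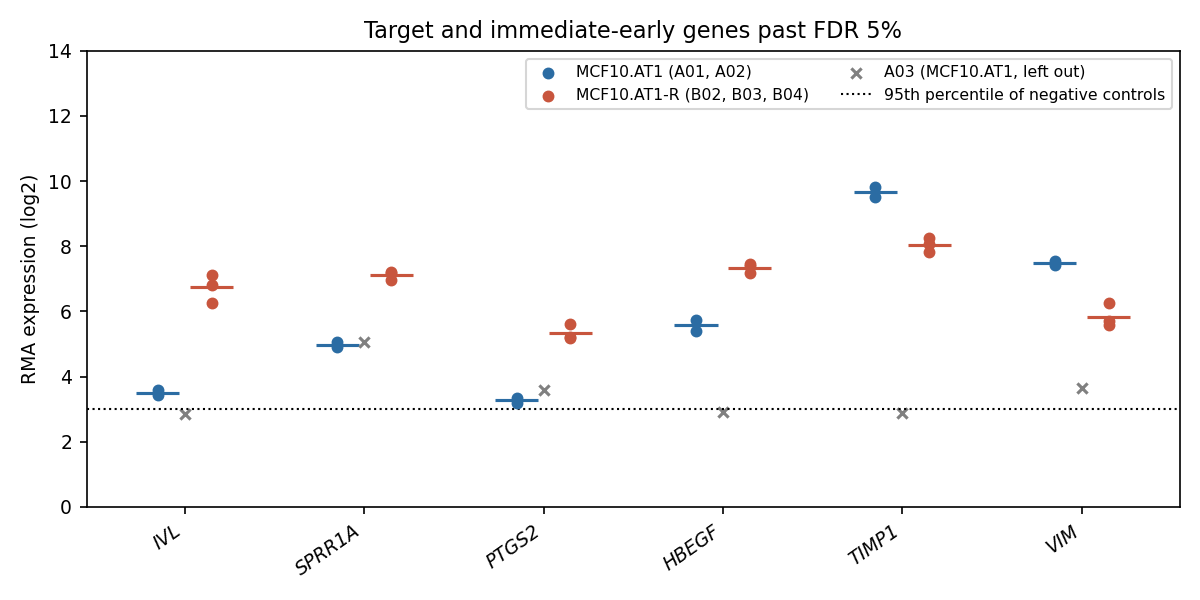
Log2 RMA expression (vertical axis) on each array of 6 target and immediate-early genes past FDR 5%, with blue points for MCF10.AT1, red points for MCF10.AT1-R, bars for line means, grey crosses for A03 and a dotted line at the same level of the negative controls, 2.99. The lines do not overlap for any of the 6 genes, and A03 lies below the dotted line for IVL, HBEGF and TIMP1.

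Markers of epithelial layers moved with these targets. All 4 basal mammary markers passed the limma test with higher levels in MCF10.AT1-R, beside 0.758% of all tested probe sets called higher. They were the keratins KRT5 (1.71), KRT14 (2.37) and KRT17 (4.08) and the transcription factor TP63 (1.74). The sum of the 4 log2 levels was 25.9 and 25.2 in MCF10.AT1 and 35.2, 35.3 and 35.9 in MCF10.AT1-R. Of the 5 luminal markers 4 were tested and 2 were higher, KRT8 (1.11) and KRT19 (2.91), beside the same 0.758%. The sum of the 5 was 35.7 on both MCF10.AT1 arrays and 41.4, 41.2 and 41.9 in MCF10.AT1-R. The basal and luminal markers were all above the negative controls on the 5 arrays, as were 4 of 5 immune, 2 or 3 of 4 fibroblast and 2 or 3 of 3 endothelial markers, so that this level alone does not tell cell types apart. The part of these layers in the differences of ATF3 and the targets was not tested.

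No marker of another cell type rose in the test, and 3 fell, beside 0.758% of all tested probe sets called higher and 0.447% lower. With so few markers tested, the lack of a rise is near the overall share. PTPRC, the defining leukocyte gene, was within the negative controls on all 5 arrays, and the sum of the 5 immune markers was 16.9 and 18.7 in MCF10.AT1 and 17.3, 17.9 and 17.6 in MCF10.AT1-R, with 1 of 4 tested markers lower (CD14, -1.12). The fibroblast gene DCN fell by 2.15, the 1 tested of 4 fibroblast markers, whose sum was 20.6 and 21.5 in MCF10.AT1 and 19.4, 19.1 and 19.2 in MCF10.AT1-R. The endothelial gene PECAM1 fell by 1.12, 1 of 2 tested of 3 endothelial markers, whose sum was 11.99 and 11.81 in MCF10.AT1 and 10.9, 10.2 and 10.6 in MCF10.AT1-R. The fibroblast and endothelial markers with the highest mean signal were COL1A1 and VWF. In MCF10.AT1 (SD, n = 2) the mean of COL1A1 was 7.03 ± 0.25 and of VWF 4.34 ± 0.03. The corresponding means in MCF10.AT1-R (SD, n = 3) were 7.18 ± 0.11 and 4.34 ± 0.13. Without a filter KRT8, CD14 and PECAM1 no longer passed, with limma adjusted p-values of 0.126, 0.157 and 0.170. COL1A1 and VWF overlapped between the lines. The part of other cell types in these differences was not tested.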

How the data were processed

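Total RNA of MCF10.AT1 and MCF10.AT1-R was hybridised to 6 Clariom D arrays. The authors deposited log2 expression values made by RMA, with the packages affy and oligo per the methods, for 138745 probe sets, unfiltered and not averaged over replicates, and the genome build of these values is not given in the sources used here. RMA equalises the distributions of the arrays, so a shift common to most transcripts cannot be seen. The line of each array was taken from the array names and the legend of a plot in the supplement.

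The 2995 control probe sets were left out of the tests, and 135750 transcript probe sets remained. Tested were the 51457 with a mean over the 5 arrays above the median (1.88) and an SD above the lowest 25% (0.18), limits chosen here. A linear model per probe set (limma 3.58.1 under R 4.3.3, lmFit followed by eBayes) compared the lines, and p-values were adjusted over all of them by the Benjamini-Hochberg method at FDR 5%, which called 390 higher and 230 lower. Values of genes below these limits came from an unfiltered fit. The scripts were tested on simulated data. With 2 arrays against 3 there are 10 arrangements, so an exact permutation test cannot pass a threshold of 5%, and the number of arrays limits the precision. All p-values rest on these arrays alone. After the full filter limma used a common SD of 0.34 for every probe set. The p-values of that fit therefore follow the size of the difference and do not measure the spread of the single gene. Without a filter the adjusted p in limma was 0.00421 for IVL and 0.0112 for PTGS2.

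Members and lists were chosen with earlier results of these data known. The genes named are the 10 members and, in each list, the symbols past FDR 5% (up to 8) and up to 4 of the rest with the highest mean over the 5 arrays. KLF4, DUSP1 and SGK1 fall outside this rule and were chosen after their values were seen, and markers of cell types are a separate list. For several probe sets of a symbol, the one with the highest mean was used. The alternatives were A03 counted, each array left out, other filters, the trend option, quantile normalization and median centring of the 5 arrays, array weights, the mean over probe sets, and a floor at the mean 95th percentile of the negative controls (2.99). Promoter sequences came from RefSeq. A few list members enter the counts and sums, but their single values are left out of the text and plots.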

Additional observations from a re-analysis of the deposited data

Results flagged for a closer look

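FOS on A03, the MCF10.AT1 array left out of the comparison, was 5.00, above its highest value of 4.38 on the other 5 arrays. It drew attention because it is a signal in an array that the comparison of the lines did not use, in a gene whose 5 other values lay between 4.12 and 4.38. Groups of 2 and 3 arrays are too small for a test of single outlying arrays.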

How the results depend on the processing

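The count of probe sets past FDR 5% was 620 as reported, 44 with A03 counted, 177 without a filter, 182 with the low-expression filter only, 1377 with the trend option, 1086 with the trend option and the low-expression filter only, 177 with the floor at the negative controls, and 280 to 575 with each array left out. The count of AP-1 members was 1 as reported, 0 with A03 counted, without a filter, with the low-expression filter only and with the floor, and 0 to 1 with each array left out. The count of immediate-early genes was 1 as reported, 0 with A03 counted and with the floor, and 2 in both fits with the trend option. The count of targets was 6 as reported, 2 with A03 counted, 11 with the trend option, 10 with the trend option and the low-expression filter only, and 1 with the floor.

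The difference of ATF3 was 1.40 with A03 counted (adjusted p of 0.361 in limma), 1.33 without a filter and with the low-expression filter only, 0.87 with the floor, and 1.12 to 1.54 with each array left out, and the first 4 of these settings, as well as leaving out A01, ended its call. The difference of FOSB, within background, was 0.0081 with A03 counted, 0.050 with the floor, and -0.27 to 0.23 with each array left out. The difference of BATF was -0.76 to 0.093 with each array left out, and was above 0 without A02. The cause of these shifts was not tested, apart from the floor, which by construction raises low values, and the smaller number of arrays. The 7 tested members kept their direction under quantile normalization, median centring and array weights. A line left with 1 array was assumed to vary like the other. No paired analysis was possible because the array names carry no replicate number of the labels. Signal over background limited FOSB, JUND and the MCF10.AT1 level of ATF3.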
